A study of Mus musculus with 6 samples.

Results

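Small nucleolar RNAs (snoRNAs) were taken as every feature whose symbol begins with Snord or Snora and a number, which gave 141 of the 24214 features counted. Of these, 104 were box C/D snoRNAs (Snord) and 37 were H/ACA snoRNAs (Snora). They were followed in 393P_vector and 393P_ZEB1 cells, both made from one epithelial lung adenocarcinoma (LUAD) line of the KP mouse model, strain C57BL/6. In both groups the cells were transfectants grown in RPMI medium with fetal calf serum, and their total RNA was sequenced on the SOLiD platform. The 393P_vector group carried the empty expression vector and the 393P_ZEB1 group carried the ZEB1 expression vector, with 3 samples in each. The comparison asks how ectopic ZEB1, a transcriptional repressor that drives epithelial-to-mesenchymal transition, changes the RNAs of this line. The labels do not say whether the samples of a group came from separate transfections or cultures, so p-values measure only the spread between these samples, which may be technical.

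SnoRNAs guide the chemical modification of other noncoding RNAs in the nucleolus. Box C/D snoRNAs carry fibrillarin to sites of 2′-O-methylation, mostly in ribosomal RNA, and H/ACA snoRNAs carry the pseudouridine synthase dyskerin. In mammals nearly all of them are cut out of the introns of host genes, many of which encode ribosomal proteins or translation factors, and a few, such as U22, U14 and U8, act in the cleavage of the ribosomal RNA precursor instead.

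The snoRNAs on which the results turned are shown first. The first 4 are long box C/D snoRNAs whose levels in 393P_vector replicate 3 were far below those of replicates 1 and 2. The next 3 are box C/D snoRNAs that passed the test between the groups, and the following 3 are the H/ACA snoRNAs that passed it. The last 2 share 1 host transcript and diverged in 393P_vector replicate 3. Sequences are those of GENCODE M21 transcripts on GRCm38, 5′ to 3′. Capitals mark box C (TGATGA within the first 20 bases), box D (CTGA within the last 15 bases) or, for H/ACA snoRNAs, ACA placed 3 bases before the 3′ end.
Snord22 (chr19:8725866-8725991, plus strand): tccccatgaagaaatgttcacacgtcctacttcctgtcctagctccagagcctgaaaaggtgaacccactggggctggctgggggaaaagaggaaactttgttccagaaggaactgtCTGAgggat
Snord15a (chr7:99482785-99482932, minus strand): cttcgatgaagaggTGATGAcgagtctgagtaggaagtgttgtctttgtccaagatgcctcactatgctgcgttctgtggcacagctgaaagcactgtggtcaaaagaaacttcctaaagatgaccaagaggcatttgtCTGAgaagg
Snord23 (chr7:15938762-15938870, minus strand): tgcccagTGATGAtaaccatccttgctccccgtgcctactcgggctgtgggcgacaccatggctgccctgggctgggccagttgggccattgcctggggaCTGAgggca
Snord7 (chr11:83294304-83294400, plus strand): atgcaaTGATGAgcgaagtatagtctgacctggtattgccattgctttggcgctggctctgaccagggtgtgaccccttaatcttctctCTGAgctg
Snord2 (chr16:23108953-23109021, plus strand): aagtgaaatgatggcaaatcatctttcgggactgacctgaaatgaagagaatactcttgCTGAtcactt
Snord96a (chr11:48802032-48802112, plus strand): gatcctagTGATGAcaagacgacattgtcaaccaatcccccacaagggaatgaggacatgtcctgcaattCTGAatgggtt
Snord53 (chr17:71640879-71640956, plus strand): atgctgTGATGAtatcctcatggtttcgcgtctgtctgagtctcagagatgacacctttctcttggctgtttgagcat
Snora31 (chr14:75847905-75848034, plus strand): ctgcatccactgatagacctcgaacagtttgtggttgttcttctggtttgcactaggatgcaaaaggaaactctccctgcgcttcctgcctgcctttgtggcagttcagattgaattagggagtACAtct
Snora33 (chr10:23785347-23785475, minus strand): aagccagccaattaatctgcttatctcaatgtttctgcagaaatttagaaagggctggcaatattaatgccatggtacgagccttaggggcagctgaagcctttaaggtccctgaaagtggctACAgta
Snora2b (chr15:98526346-98526482, minus strand): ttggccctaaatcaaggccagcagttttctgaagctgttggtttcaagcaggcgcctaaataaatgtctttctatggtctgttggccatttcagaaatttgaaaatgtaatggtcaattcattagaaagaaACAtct
Snora61 (chr4:132310240-132310369, plus strand): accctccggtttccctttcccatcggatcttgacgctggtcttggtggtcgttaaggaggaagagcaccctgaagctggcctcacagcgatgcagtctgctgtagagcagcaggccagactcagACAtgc
Snora44 (chr4:132309941-132310069, plus strand): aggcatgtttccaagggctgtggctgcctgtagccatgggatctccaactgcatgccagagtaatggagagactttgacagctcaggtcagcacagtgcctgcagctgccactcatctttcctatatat

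These motifs, read on the transcript strand, follow the 2 classes. Of 64 tested box C/D snoRNAs with a GENCODE transcript, 60.9% held box C and 90.6% held box D, and 57.8% held both, against 0.699%, 7.11% and 0.255% of all 141704 GENCODE transcripts. ACA stood at its place in 82.4% of the 34 tested H/ACA snoRNAs and in 2.45% of all transcripts. Snord22 and Snord2 have no TGATGA in the window, Snord53 has no CTGA in its window and Snora44 has no ACA at that distance, so no such letters are marked in them.

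The samples held between 54442450 and 79158012 counts, the largest being 393P_vector replicate 3. Levels are given as CPM, the usual count scaled to the library size, here after TMM scaling, on which 3 counts correspond to between 0.0361 and 0.0561 CPM. Zeb1, the gene named in the labels, was at 21.2, 22.01 and 21.4 CPM in the 393P_vector samples and 54.9, 48.9 and 51.3 CPM in the 393P_ZEB1 samples. The epithelial genes Cdh1 and Epcam were at 113 to 231 and 92.2 to 182 CPM with the vector and at 8.84 to 10.3 and 0.617 to 1.76 CPM with ZEB1. The leukocyte gene Ptprc was at or under 0.373 CPM in every sample.

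Ectopic ZEB1 left most snoRNAs without a difference that passed the test. Of the 141, 99 had enough counts to be tested, 65 box C/D and 34 H/ACA. With edgeR's quasi-likelihood test and Benjamini-Hochberg adjustment over all 13892 tested features, at a threshold of 0.05, 3 box C/D snoRNAs rose and 1 fell, while no H/ACA snoRNA rose and 3 fell. These 7 are 7.07% of the snoRNAs tested, whereas among all features 18.3% rose and 19.3% fell. At an unadjusted edgeR p under 0.05 the snoRNAs numbered 14 of 99, against 6481 of all 13892 features. Of the 34 H/ACA snoRNAs 5 had such a p. For H/ACA snoRNAs that rose, DESeq2 also gave 0, whereas limma voom with sample weights gave 4.

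The median log2 fold change was 0.24 for box C/D snoRNAs, 0.05 for H/ACA snoRNAs and -0.02 for all features. The median size of the change was alike, 0.33 for snoRNAs and 0.39 for all features on the log2 scale. The spread between replicates was wider: the median biological coefficient of variation (BCV, the relative spread of a feature between replicates) was 0.242 for the snoRNAs and 0.167 for all features. The median snoRNA was at 112 CPM, and the 2280 features at or above that level had a median BCV of 0.132, with 32.5% of them called.

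**Figure D1:**
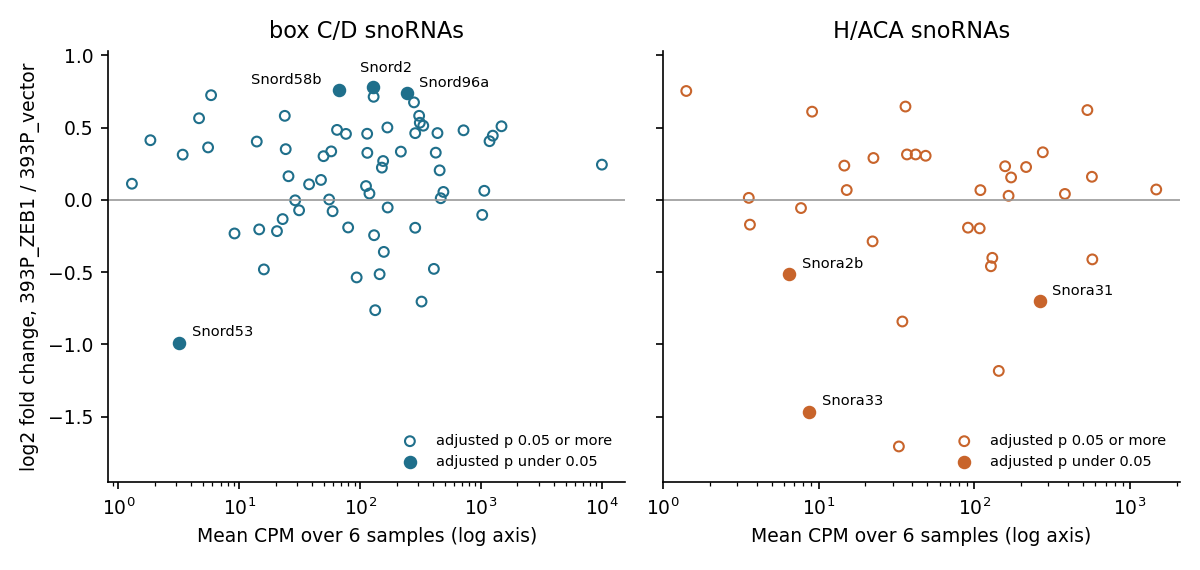
Log2 fold change of 393P_ZEB1 over 393P_vector for the 65 tested box C/D and 34 tested H/ACA snoRNAs (y axis) against their mean CPM over 6 samples (x axis, log scale). Each point is 1 snoRNA, and filled points passed the edgeR threshold. The 3 snoRNAs that rose are box C/D and lie between 0.74 and 0.78, and the fall was largest for Snora33, at -1.47.

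Among the snoRNAs that passed the test, the H/ACA snoRNAs that fell came first. Snora31, which lies in an intron of Tpt1, the gene of translationally controlled tumour protein, was at 333, 315 and 331 CPM in 393P_vector replicates 1 to 3 and 213, 177 and 213 CPM in 393P_ZEB1 replicates 1 to 3. The groups did not overlap and replicate 3 of the vector group lay with the other two. Its log2 fold change was -0.70 ± 0.11 (SE), with an edgeR adjusted p of 0.00199.

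Snora2b, from an intron of Kansl2, which encodes a subunit of a histone acetyltransferase complex, was at 7.69, 7.51 and 7.61 CPM with the vector and 6.06, 5.06 and 4.88 CPM with ZEB1. Again no ZEB1 sample reached the vector samples, which were nearly equal. The log2 fold change was -0.51 ± 0.15 (SE, edgeR adjusted p = 0.0274), next to -0.50 ± 0.12 for Kansl2 itself (edgeR adjusted p = 0.0154).

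Snora33 lies in the ribosomal protein gene Rps12 and was at 8.36, 7.73 and 22.3 CPM with the vector and 3.96, 4.93 and 5.03 CPM with ZEB1. All ZEB1 samples were below all vector samples, but 393P_vector replicate 3 stood well above the other two. Its fall of -1.47 ± 0.41 on the log2 scale (SE, edgeR adjusted p = 0.0253) was -0.79 ± 0.15 without that sample (edgeR adjusted p = 0.00114).

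One box C/D snoRNA fell. Snord53, here the copy in Wdr43, whose product is a nucleolar ribosome assembly factor, was at 4.86, 4.54 and 3.31 CPM with the vector and 3.07, 1.58 and 1.75 CPM with ZEB1. The groups touched closely, with 393P_vector replicate 3 just above 393P_ZEB1 replicate 1. The log2 fold change was -0.99 ± 0.29 (SE, edgeR adjusted p = 0.0312), and Wdr43 fell by 0.43 on the log2 scale (edgeR adjusted p = 0.00773). The symbol Snord53 is listed at 3 loci, of which this alone had enough reads to be tested, and how reads that match several copies were assigned is not given in the sources used here.

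Box C/D snoRNAs that rose were all guides of ribosomal RNA methylation. Snord2, in an intron of the translation initiation helicase gene Eif4a2, was at 103, 93.3 and 82.9 CPM with the vector and 211, 121 and 149 CPM with ZEB1. Replicate 1 was the highest of the ZEB1 samples and no sample overlapped the other group. Its log2 fold change was 0.78 ± 0.20 (SE, edgeR adjusted p = 0.0190), while Eif4a2 gave -0.23 ± 0.11 (edgeR adjusted p = 0.148).

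Snord96a, in Gnb2l1, which encodes the ribosomal scaffold protein also called RACK1, was at 201, 198 and 149 CPM with the vector and 412, 246 and 255 CPM with ZEB1. Here too ZEB1 replicate 1 stood above the others, and the groups did not overlap. The log2 fold change was 0.74 ± 0.22 (SE, edgeR adjusted p = 0.0345). Without 393P_vector replicate 3 the adjusted p was 0.0687, which missed the threshold, at a log2 fold change of 0.61.

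Snord58b, the copy in Rpl17, was at 54.0, 38.6 and 55.5 CPM with the vector and 113, 65.3 and 72.4 CPM with ZEB1. Its groups were separate, with the highest vector sample below the lowest ZEB1 sample. The log2 fold change was 0.76 ± 0.24 (SE, edgeR adjusted p = 0.0377). Rpl17 was at 28.2, 27.9 and 237 CPM with the vector and 29.6, 50.1 and 47.9 CPM with ZEB1, so that its log2 fold change of -1.20 (edgeR adjusted p = 0.274) turned to 0.60 without vector replicate 3 (edgeR adjusted p = 0.0535). A second row of this symbol elsewhere in the genome was not tested.

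The ZEB1 samples were all above or all below the vector samples for 13 snoRNAs, 13.1%, against 52.8% of all features. Besides the 7 above these were Snord17, Snord49b, Snora3 and Snora36b on the higher side and Snora52 and Snora62 on the lower, none of which passed the test. Snora3 was at 36.9, 31.6 and 16.1 CPM with the vector and 50.3, 41.8 and 40.3 CPM with ZEB1 (log2 fold change 0.65 ± 0.28, edgeR adjusted p = 0.111). Snora36b, whose interval also holds a microRNA row, gave 0.75 ± 0.32 at no more than 2.15 CPM (edgeR adjusted p = 0.105), and Snora5c gave 0.29 ± 0.16 (edgeR adjusted p = 0.192). Among box C/D snoRNAs that did not pass, Snord100 had -0.70 ± 0.24 (edgeR adjusted p = 0.0518) and Snord45c had -0.76 ± 0.33 (edgeR adjusted p = 0.110).

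**Figure D2:**
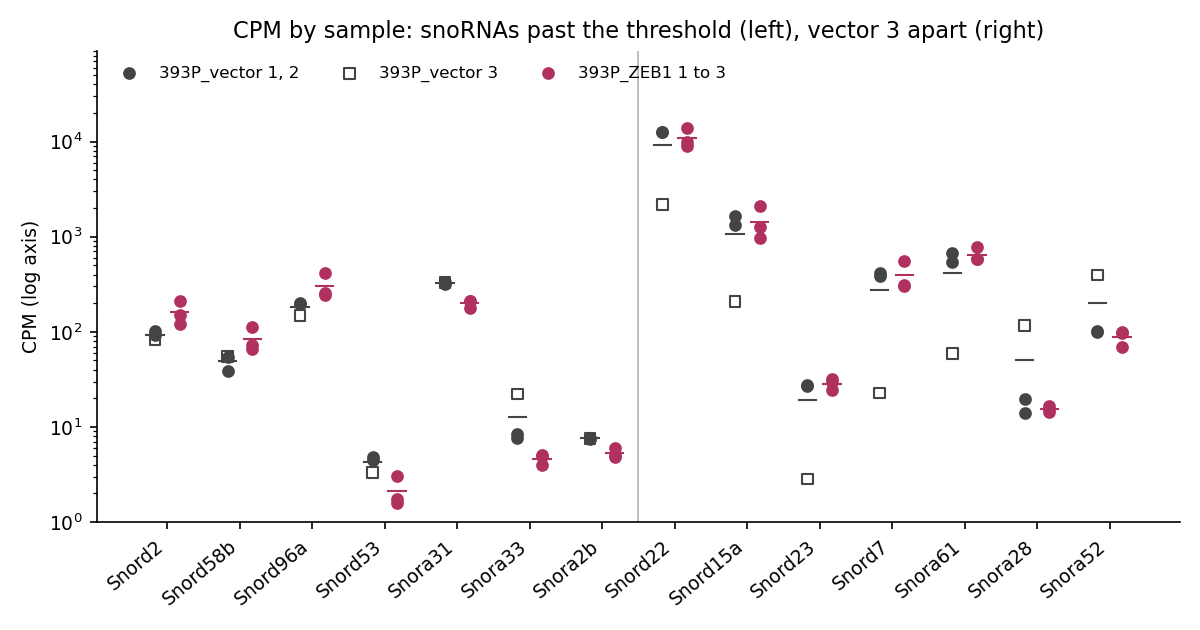
CPM in each of the 6 samples (y axis, log scale) for the 7 snoRNAs that passed the edgeR threshold (left of the line) and 7 in which 393P_vector replicate 3 stood apart (right). Dark circles are vector replicates 1 and 2, open squares vector replicate 3, red circles the ZEB1 samples, and short lines group means; for Snord22 the open square lies at 2193 CPM, under vector values of 12634.3 and 12633.5.

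Counts concentrated on few snoRNAs. Per kilobase of the listed interval, Snord22 was highest with 79980 CPM per kb as a mean over 6 samples. Next came Snord104 with 20513 and Snord83b with 13464. Listed intervals cover only part of some snoRNAs, such as 43.1% of Snord98 and 47.7% of Snora61, but 100% of Snord22 and Snora26. Levels per kb therefore compare different snoRNAs only roughly. Snora26 led the H/ACA class with 12317 CPM per kb, and Snora36b was the lowest tested snoRNA of all with 12.6. Snora26 lies within a noncoding feature, 2700023E23Rik, that may hold the same reads.

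Snord22, or U22, acts in the processing of 18S ribosomal RNA and lies in the noncoding host gene Snhg1. It was at 12634.3, 12633.5 and 2193 CPM with the vector and 13757, 8962 and 9805 CPM with ZEB1. Vector replicates 1 and 2 lay within the ZEB1 range, whereas replicate 3 was 5.76-fold lower than their mean. Over all samples the log2 fold change was 0.24 ± 0.56 (SE, edgeR adjusted p = 0.764), and without replicate 3 it was -0.22 ± 0.17 (edgeR adjusted p = 0.291).

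Snord104 was at 1504, 1241 and 912 CPM with the vector and 2381, 1424 and 1400 CPM with ZEB1, with overlapping groups and a log2 fold change of 0.51 ± 0.26 (edgeR adjusted p = 0.160). Snord15a, a guide of 28S ribosomal RNA methylation in Rps3, was at 1316, 1655 and 210 CPM with the vector and 2119, 958 and 1252 CPM with ZEB1. Its low value was again vector replicate 3. Of the abundant H/ACA snoRNAs, Snora26 gave 0.07 ± 0.19, Snora7a -0.41 ± 0.30 and Snora17 0.16 ± 0.22 as log2 fold changes, with edgeR adjusted p of 0.797, 0.321 and 0.5997.

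Summed over all 104 rows, box C/D snoRNAs were at 28415, 28050 and 11939 CPM with the vector and 34532, 21731 and 24340 CPM with ZEB1. The ratio of group means was 0.24 on the log2 scale and -0.07 without vector replicate 3. For H/ACA snoRNAs the sums were 7172, 5455 and 4912 CPM with the vector and 6844, 5729 and 4985 CPM with ZEB1. That log2 ratio was 0.0015, and -0.11 without replicate 3, so in neither class did the group means differ beyond the spread of the samples. Box C/D sums were 3.96, 5.14 and 2.43 times the H/ACA sums in the vector samples and 5.05, 3.79 and 4.88 times in the ZEB1 samples.

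**Figure D3:**
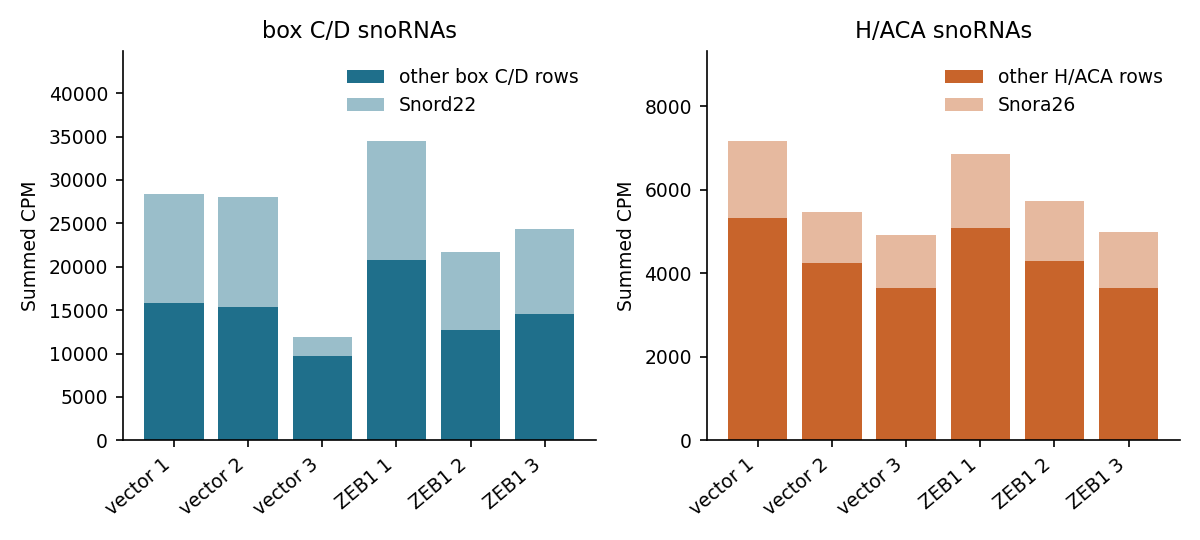
Summed CPM of box C/D (left) and H/ACA (right) snoRNAs in each sample (y axes from 0, of different range), with the share of Snord22 and of Snora26 in the lighter tone. The box C/D bar of vector replicate 3, at 11939 CPM, is the shortest of the 6, and 2193 CPM of it is Snord22.

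That sample stood apart within its own group. In 393P_vector replicate 3, 24 snoRNAs were at least 2-fold below the mean of replicates 1 and 2 and 5 were at least 2-fold above it, together 29.3% of the 99. Among all features 3.48% were so far below and 5.05% so far above, and among the features as abundant as the median snoRNA 3.55% differed in either direction. Replicates 1 and 2 differed 2-fold in 1.01% of snoRNAs, replicates 1 and 3 in 33.3%, and replicates 2 and 3 in 29.3%. No other sample gave over 6.06% against the other 2 of its group.

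Of the 24 that were low in replicate 3, 18 were box C/D and 6 were H/ACA. Of the 5 that were high, 1 was box C/D and 4 were H/ACA. The median log2 ratio of replicate 3 to replicates 1 and 2 was -0.57 for box C/D snoRNAs, -0.17 for H/ACA snoRNAs and -0.01 for all features. Replicate 3 was the lowest of all 6 samples for 39 of 65 box C/D snoRNAs.

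The members named next were chosen after their values were seen. Snord7, a guide for the spliceosomal U6 RNA, was at 411, 389 and 22.7 CPM in the vector samples and at 562, 300 and 313 CPM with ZEB1. Snord23 was at 27.1, 27.3 and 2.83 CPM with the vector and 29.5, 31.6 and 24.4 CPM with ZEB1. In both, replicate 3 was the single low sample, 17.6-fold and 9.62-fold under the mean of replicates 1 and 2, and the other vector samples lay within or next to the ZEB1 range.

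Snora61 showed the same among H/ACA snoRNAs, with 666, 536 and 59.3 CPM in the vector samples and 780, 580 and 580 CPM with ZEB1. The opposite was seen in Snora28, which was at 19.7, 13.9 and 117 CPM with the vector and 14.2, 15.5 and 16.5 CPM with ZEB1. Snora52 was at 102, 99.6 and 397 CPM with the vector and 96.3, 98.8 and 68.7 CPM with ZEB1. So replicate 3 was the single low sample in Snora61 and the single high one in Snora28 and Snora52, 6.96-fold and 3.93-fold above its 2 counterparts. Their log2 fold changes between the groups, -1.71 ± 0.74 for Snora28 and -1.18 ± 0.53 for Snora52, became -0.13 and -0.20 without it.

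Within the box C/D class the loss in replicate 3 went with length. Of the 16 snoRNAs of 80 bases or more, as listed in the files, 11 were at least 2-fold lower, with a median log2 ratio of -1.37. The 29 of 60 to 79 bases had a median of -0.51 and the 20 under 60 bases a median of -0.13, with 6 and 1 of them 2-fold lower. Across these 65 snoRNAs, which share 1 set of libraries, Spearman's rho between the log2 ratio and length was -0.46, and with the GC content of the 64 matched transcripts it was -0.50. For ZEB1 replicates 1 to 3, each against the other 2, rho with length was 0.05, 0.21 and -0.16.

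In the H/ACA class, rho was -0.13 with length and -0.30 with GC content. Features under 250 bases of every kind, most of whose counts were snoRNAs, made up 1.97% of the counts of replicate 3 and between 2.99% and 4.38% of the other samples. The part that length, GC content or the purification of short RNAs played in these values was not tested.

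**Figure D4:**
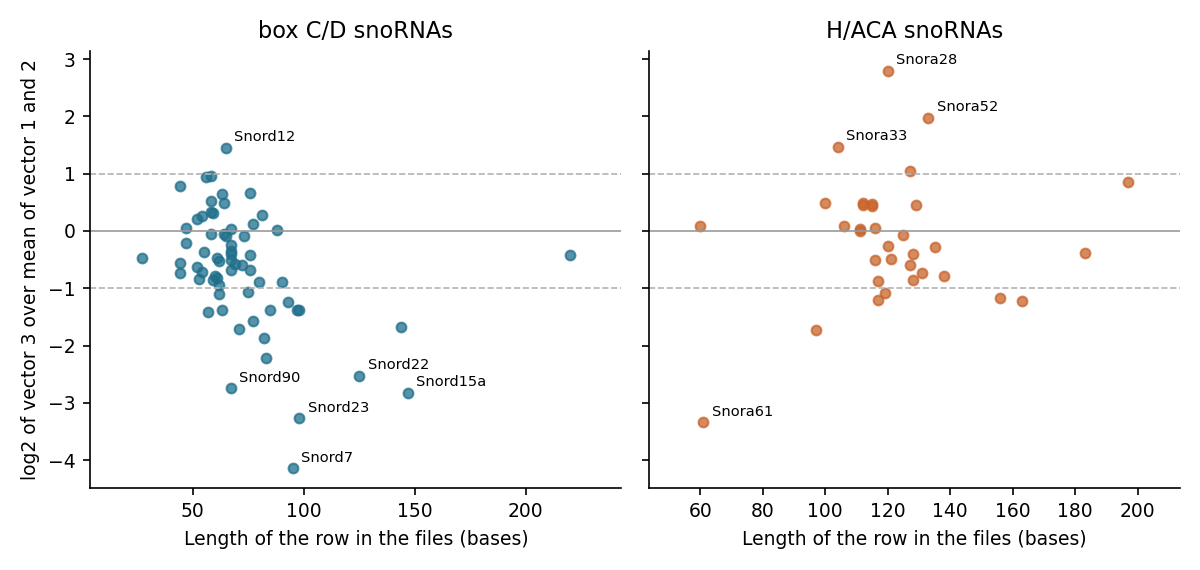
Log2 ratio of CPM in 393P_vector replicate 3 to the mean of replicates 1 and 2 (y axis) against the length listed in the files (x axis, bases), 1 point per tested snoRNA, with dashed lines at 2-fold. Box C/D snoRNAs of 80 bases or more lie mostly below the lower line, with a median of -1.37, and H/ACA snoRNAs lie on both sides.

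A smaller shift touched 393P_ZEB1 replicate 1. It was the highest of the 3 ZEB1 samples for 58 of 65 box C/D snoRNAs (89.2%) and for 22 of 34 H/ACA snoRNAs, together 80.8%, against 37.5% of all features. The median log2 ratio to ZEB1 replicates 2 and 3 was 0.64 for box C/D and 0.30 for H/ACA snoRNAs. Snord2, Snord96a and Snord58b, which rose, shared this order of the ZEB1 samples.

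Fitted without 393P_vector replicate 3, 5 box C/D snoRNAs of the 99 rose and 4 fell, and 4 H/ACA snoRNAs rose and 6 fell. These are 19.2% of the snoRNAs, while among all 14106 features tested in that fit 26.2% rose and 26.8% fell. The median log2 fold change was 0.07 for box C/D and -0.01 for H/ACA snoRNAs. All called with 6 samples except Snord96a were called again, and 13 were added.

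Those added among H/ACA snoRNAs included Snora43 in Snhg7, which was at 182, 163 and 99.7 CPM with the vector and 105, 110 and 108 CPM with ZEB1. Its log2 fold change was -0.68 ± 0.08 (SE) in the reduced fit (edgeR adjusted p = 3.92e-05), and -0.46 ± 0.21 with 6 samples (edgeR adjusted p = 0.121). Vector replicates 1 and 2 lay above all ZEB1 samples and replicate 3 just below them. Snora74a, in Snhg4, gave 0.67 ± 0.13 in the reduced fit (edgeR adjusted p = 0.00181), and Snord1b gave 0.66 ± 0.12 (edgeR adjusted p = 0.000900). Snord92, the second snoRNA in Wdr43, gave -0.94 ± 0.26 (edgeR adjusted p = 0.0215), beside -1.14 ± 0.25 for Snord53.

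Host genes were taken as the longer feature of the same strand that holds the snoRNA's interval, which gave 95 tested snoRNAs in 68 tested hosts. Of the hosts, 5 rose and 12 fell, with a median log2 fold change of -0.18, whereas 37.6% of all features were called. In 10 of the 68 hosts vector replicate 3 was at least 2-fold from replicates 1 and 2, against 8.52% of all features. A host that passed the test held 25 snoRNAs, of which 3 passed in the same direction as the host: Snora33, Snora2b and Snord53. The other 4 called snoRNAs lay in hosts that did not pass.

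Across the 68 hosts, Spearman's rho between the host's log2 fold change and the mean of its snoRNAs was 0.34. Without 393P_vector replicate 3 it was 0.62, with 9 of the 68 hosts higher and 15 lower. Among all features of that fit 26.2% rose and 26.8% fell. In that fit, 34 of the 95 snoRNAs lay in a called host, 27 of them with the host's sign. Over all 95 the sign was shared by 66. Of the 18 called snoRNAs with a tested host, 12 lay in a host that was also called, 11 of them in the same direction. Snora5c was the one that differed, with 0.47 against -0.26 for Tbrg4. Snora74a and Snhg4 gave 0.67 and 0.70, Snora43 and Snhg7 -0.68 and -0.54, and Snora64 and Rps2 -0.55 and -0.98. The points share libraries, and snoRNAs of 1 host share a transcript. Some host features may also hold the snoRNA's own reads, which would make the values alike by counting. With the vector, 2700023E23Rik was at 1850, 1216 and 1276 CPM and its Snora26 at 1843, 1211 and 1270 CPM. Snhg8 was at 120, 106 and 164 CPM and its Snora24 at 110, 96.2 and 141 CPM. How far shared reads raised rho was not tested.

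The deviation of replicate 3 did not run along hosts: rho across them was 0.09. Snhg12, a noncoding host, carries 4 tested snoRNAs, and in replicate 3 Snora61 was at a log2 ratio of -3.34 while Snora44 was at 0.06 and Snhg12 itself at -0.16. Rpl23a went the other way from its snoRNAs, at 2.89, while Snord4a, Snord42a and Snord42b were between -0.72 and -0.57. Both Rps3 snoRNAs, Snord15a and Snord15b, were low, at -2.82 and -1.67, while Rps3 was at 0.24. Ribosomal protein genes have many processed copies in the genome, so their counts may depend on how shared reads were assigned. The part this played in these values was not tested.

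**Figure D5:**
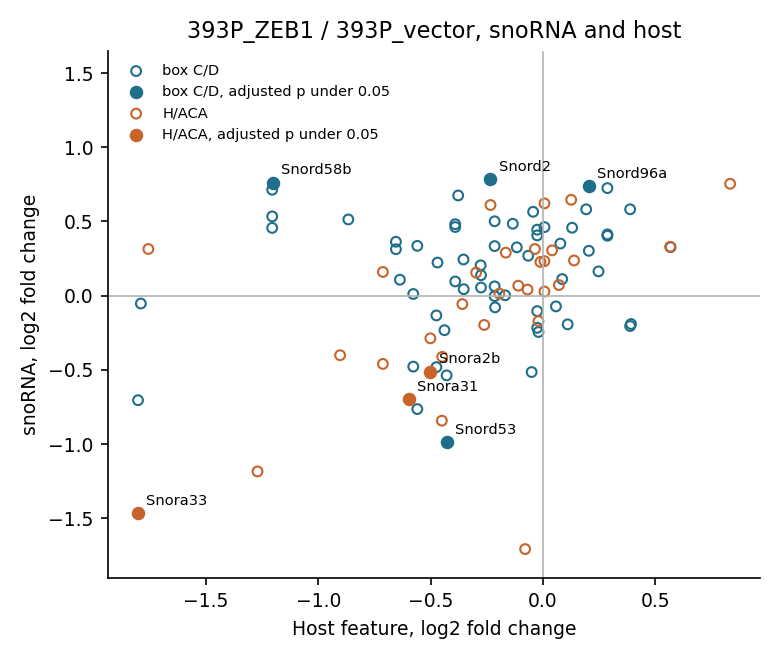
Log2 fold change of 393P_ZEB1 over 393P_vector for 95 snoRNAs (y axis) against that of the host feature (x axis), in the fit of all 6 samples, with filled points past the edgeR threshold. Snora33, Snora2b, Snora31 and Snord53 lie where both values are negative, and Snord2 and Snord58b rose in hosts at -0.23 and -1.20, the latter being 0.60 without vector replicate 3.

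The snoRNAs were also read by chromosome. The 3 chromosomes whose other features had the highest median log2 fold change were 18, 11 and 16, at 0.64, 0.26 and 0.24. All 21 tested snoRNAs on them had a positive log2 fold change, with a median of 0.48, and the 3 that rose, Snord58b, Snord96a and Snord2, lie 1 on each. Elsewhere 44 of 78 were positive, with a median of 0.04. Among other features 74.4% were positive and 36.6% rose on these chromosomes, against 43.5% and 15.4% elsewhere. The remaining chromosomes were mixed. On chromosome 7 the median was 0.35 for 14 snoRNAs and -0.02 for other features. For chromosome 1 it was -0.17 for 9 snoRNAs and 0.07 for other features. These medians also had opposite signs on chromosomes 2, 5, 8 and 19. Both were negative on chromosomes 6, 9, 10, 12, 14, 15, 17 and X, and both were positive on 3, 4 and 13. This split was made after the values were seen, and its cause was not tested.

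The proteins that bind snoRNAs were read in the same fit. Of the box C/D core, Nop58 rose, from 302, 297 and 279 CPM to 433, 340 and 375 CPM (log2 fold change 0.39 ± 0.12, edgeR adjusted p = 0.0350). Nop56 fell by 0.58 and Nhp2l1, a protein that binds the box C/D motif, fell by 0.74 on the log2 scale, with edgeR adjusted p of 0.0418 and 0.0466. Fibrillarin (Fbl) gave 0.01 ± 0.14. Thus 1 of 4 was higher and 2 were lower, where 18.3% of all features rose and 19.3% fell. None of these 3 calls held in every fit: without vector replicate 3 Nop56 had an edgeR adjusted p of 0.0564, and with a replicate block Nop58 had 0.0698 and Nhp2l1 0.0865.

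None of the 4 H/ACA core proteins passed the test with 6 samples, where 18.3% of all features rose and 19.3% fell. At an unadjusted edgeR p under 0.05 there were 3 (Dkc1, Nhp2 and Nop10), all with a negative log2 fold change. Of all 13892 features 6481 had such a p. Without vector replicate 3 edgeR called 1 higher and 2 lower, where 26.2% of all features rose and 26.8% fell. Dyskerin (Dkc1) was at 118, 109 and 164 CPM with the vector and 98.2, 90.8 and 98.1 CPM with ZEB1 (log2 fold change -0.44 ± 0.16, edgeR adjusted p = 0.0649). Nop10 had its high sample in vector replicate 3, with 38.3, 35.5 and 95.3 CPM. Of 12 assembly factors 1 rose and 3 fell with 6 samples, a share near that of all features. Pih1d1, a member of the R2TP chaperone complex, was at 0.90 ± 0.19. Nufip1, Ruvbl2 and Nolc1 were at -0.69, -0.41 and -0.36 (edgeR adjusted p of the 4 between 0.00240 and 0.0490). The call of Nolc1 was lost with DESeq2 size factors, without the filter on low counts and with the replicate block (edgeR adjusted p = 0.0503, 0.0655 and 0.0908). It was also lost in 5 of the 6 fits that left out a sample (edgeR adjusted p between 0.0642 and 0.151). That of Ruvbl2 was likewise lost in 5 of those 6 fits (edgeR adjusted p between 0.0533 and 0.0681). Without vector replicate 3, 2 of the 12 assembly factors were higher and 6 lower, where 26.2% of all features rose and 26.8% fell. Rrp9 had the smallest p there, at -0.74 (edgeR adjusted p = 7.47e-05). It was at 123, 144 and 70.2 CPM in vector replicates 1 to 3.

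Among 12 noncoding host genes, Snhg4 rose by 0.57 ± 0.15 and Snhg10, Snhg5 and Snhg7 were lower at -0.90, -0.72 and -0.71 (edgeR adjusted p between 0.0111 and 0.0221). These 4 of 12 lie near the 37.6% of all features that were called. Gas5, the most abundant of them, was at 5015, 4617 and 3764 CPM with the vector and 6178, 3763 and 4517 CPM with ZEB1, and overlapped between groups. Of 19 tested short noncoding RNAs other than snoRNAs, none rose and 4 fell, against 18.3% and 19.3% of all features. None rose at an unadjusted edgeR p under 0.05 either, which 6481 of all 13892 features reached in either direction. In 10 of the 19, vector replicate 3 was at least 2-fold from replicates 1 and 2, against 8.52% of all features. The telomerase RNA Terc, which carries an H/ACA domain bound by dyskerin, was at 2.42, 1.70 and 6.95 CPM with the vector and 0.430, 0.432 and 0.491 CPM with ZEB1. It fell by 3.03 ± 0.55 on the log2 scale (edgeR adjusted p = 0.00397), and by 2.18 without vector replicate 3, where its level was highest.

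The remaining 42 snoRNA rows were too low to be tested, with at most 17 counts in any sample, and 36 of them were at 0 in all samples. They include 30 rows of the imprinted Snord116 cluster, known from brain, which cover 10 intervals listed under 3 symbols each. Of the snoRNAs that act in ribosomal RNA processing, Snord14a, Snord14c, Snord14d and Snord118 had at most 1 count. Their listed intervals span 21 to 43 bases, and no level of U14 or U8 is read from them here. Snord98, listed with 28 bases, had enough counts to be tested. Whether the short intervals held the counts down was not tested. Snord123, chosen after its values were seen, had 1, 4 and 5 counts with the vector and 17, 9 and 15 counts with ZEB1. Without the filter on low counts its log2 fold change was 2.22 ± 0.53 (SE, edgeR adjusted p = 0.0106), and its host 0610007N19Rik, tested with 6 samples, gave 1.39.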

How the data were processed

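SOLiD total RNA-seq libraries of 393P_vector (n = 3) and 393P_ZEB1 (n = 3) cells were grouped by their labels. RNA had been purified on RNeasy Mini columns, which keep short RNAs less well than long ones. The authors deposited unnormalized counts of reads per RefSeq feature for each sample, used here as deposited, with coordinates that match GRCm38. RPKM values in the same files were not used. The aligner, the counting program, the use of strand and the treatment of reads that match several loci are not given in the sources used here, and rows of snoRNAs that overlap a microRNA row (Snord33, Snord93, Snora36b, Snora47) may share reads with it.

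Features were kept by filterByExpr with a minimum count of 10, normalized by TMM and fitted with the robust quasi-likelihood model of edgeR 4.0.16 in R 4.3.3, 1 coefficient for the condition and no block. P-values were adjusted over all 13892 features by the Benjamini-Hochberg method, at a threshold of 0.05. SE is the log2 fold change divided by the square root of the F statistic. CPM is the count scaled to the TMM-normalized library size. The common BCV was 0.184, and total counts of 54442450 to 79158012 a sample limit precision less than the spread between samples. Scripts were tested on simulated counts before use. Alternatives were DESeq2 1.42.0 (size factors and Wald test), limma 3.58.1 voom with sample weights, other filters, a replicate block and leaving out each sample. An exact permutation test of 3 samples against 3 cannot give a p under 0.1 and was not relied on.

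Named snoRNAs were, in each class, the 3 most abundant, up to 5 with the largest called increase and decrease (otherwise the 3 of smallest p in that direction) at a mean of at least 1 CPM, and snoRNAs of ribosomal RNA processing. Members, lists and tests were chosen with earlier results of these data known. Transcript sequences were read from GENCODE M21, and 1 symbol at several loci was kept as separate rows. Python 3.11.15, SciPy 1.17.1 and pandas 2.3.3 were used.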

Additional observations from a re-analysis of the deposited data

How the results depend on the processing

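With all 6 samples 3 box C/D snoRNAs rose and 1 fell, and 0 H/ACA snoRNAs rose and 3 fell. In that fit 18.3% of all features rose and 19.3% fell. DESeq2's Wald test gave 5 and 2 for box C/D, limma voom with sample weights 6 and 9 for box C/D and 4 and 8 for H/ACA, and no filter on low counts 5 and 2 for box C/D. At a threshold of 0.01 the box C/D counts were 0 and 0 and 1 H/ACA snoRNA fell, and without rows of more than 1 locus 0 box C/D snoRNAs fell. Leaving out each sample gave 1 to 7 box C/D snoRNAs higher and 0 to 4 lower, and 0 to 4 H/ACA snoRNAs higher and 1 to 6 lower. The counts without 393P_vector replicate 3 were 6 and 4 for box C/D, Snord123 included, and 4 and 6 for H/ACA. There 26.2% of all features rose and 26.8% fell. Without 393P_ZEB1 replicate 1, 1 box C/D snoRNA rose and 3 fell. Shares of all features are not given here for the other fits, the replicate block included. Those counts therefore do not show whether snoRNA calls moved more than those of other features. Why these counts moved was not tested.

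The fit with a replicate block gave 6 box C/D snoRNAs higher and 3 lower and 1 H/ACA snoRNA higher, and Snora2b had an edgeR adjusted p of 0.0630 in it. Deviations of same-numbered samples correlated at 0.279, -0.205 and -0.0377 across features and those of other pairs at between -0.182 and 0.222, so the numbers are not taken as pairs. Snord2 and Snora31 stayed past the threshold in every fit, and the other 5 called snoRNAs did not pass in at least 1 fit that left out a sample.

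Values of snoRNAs that did not pass changed sign in 12 cases, each being 1 snoRNA in 1 fit. These cases lay under limma voom and in the fits without vector replicate 2, vector replicate 3 or ZEB1 replicate 1. Under limma voom the log2 fold change was -0.28 for Snord22, -0.16 for Snord15a, -0.14 for Snora26, -0.11 for Snora17 and -0.15 for Snord7. Leaving out each sample gave -0.22 to 0.55 for Snord22, -0.0424 to 0.93 for Snord15a, -0.0520 to 0.29 for Snora26, -0.0457 to 0.36 for Snora17 and -0.0316 to 0.94 for Snord7. Of proteins near 0, Fbl spanned -0.0676 to 0.13, Znhit6 -0.0209 to 0.27 and Tgs1 -0.0329 to 0.0273 over those fits. With at least 10 counts in every sample Fbl gave -0.0047 and Tgs1 -0.0091, and limma voom gave -0.0375 for Tgs1. Summed levels stayed within the spread of the samples, with log2 ratios of -0.07 to 0.43 for box C/D and -0.13 to 0.18 for H/ACA when each sample was left out.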
